A study of Mus musculus with 2 samples.

Results

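The genes described here encode the eukaryotic translation initiation factors (eIFs) and the proteins that regulate them. They are the genes whose symbol begins with Eif and a digit from 1 to 6, apart from Eif2ak2, and that have a probe set, the array's set of probes summarised into 1 value, naming no other gene. Of 19946 genes with such a probe set, 48 met this rule, and 47 of the 48 were above the detection limit in at least 1 array. The cells were mouse embryonic fibroblasts, connective tissue cells cultured from embryos, of a strain, genotype and embryonic age that the sources used here do not give. Both cultures had received an adenovirus expressing LacZ, a bacterial reporter gene, so infection is common to treated and control cells. One culture was given DMSO, the solvent, and the other 250 nM celastrol, a plant triterpenoid, for 7 h in DMEM with 1% FBS. Each condition was measured on 1 Affymetrix array, so no spread between cultures, p-value or interval can be given, and an effect of the compound cannot be told apart from a difference between the cultures or the arrays.

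Initiation brings the small ribosomal subunit, the initiator transfer RNA and the messenger RNA together at a start codon. eIF2 carries the initiator transfer RNA as a complex with GTP, and eIF2B recharges eIF2 with GTP after each round. Stress-activated kinases phosphorylate eIF2, which then inhibits eIF2B, lowers general protein synthesis and favours a set of stress messages. A separate control acts at the messenger RNA cap, where the binding proteins of eIF4E, when not phosphorylated by the mTORC1 kinase, keep eIF4E from assembling with eIF4G and eIF4A.

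The values are log2 expression values from RMA, a method that corrects background, equalises the arrays' distributions and summarises the probes of each set. A difference below is celastrol minus DMSO on that scale, and a fold is 2 raised to its size. A gene counted as detected above 5.73, the 95th percentile of 1210 probe sets whose genes encode olfactory or vomeronasal receptors, which fibroblasts are not known to use. The central 95% of these receptor probe sets differed between the arrays by -0.42 to 0.41. They are dim, so this range does not measure the scatter of brighter probe sets and serves only as a reference. Of 10 fibroblast markers, 9 were above the limit in both arrays, among them Col1a1 (12.16 with DMSO, 11.69 with celastrol) and Vim (13.85 and 13.95), while Lum (4.15 and 4.04) was below it in both. Of the markers of other cell types, 4 of 5 epithelial, 1 of 5 endothelial, 1 of 4 leukocyte and 3 of 5 muscle genes were above the limit in both arrays. The median of the muscle markers was 6.30 with DMSO and 6.64 with celastrol. Tnnt2 (8.34 and 9.21), Myod1 (6.30 and 6.64) and Des (5.60, below the limit, and 5.92) were higher with celastrol. Of these, Tnnt2 (a difference of 0.87) lay outside the receptor range, and Myod1 (0.34) and Des (0.32) lay inside it. Actc1 (7.18 and 7.15) and Myog (5.47 and 5.25, below the limit in both) were lower. The part of these markers in the results below was not tested.

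As a family the initiation factor genes lay close to the same level in both arrays. Of the 47 detected members, 20 were higher and 27 lower with celastrol, with a median difference of -0.04, which became 0.0088 with 24 higher and 23 lower when a trend with signal level was subtracted. The median over all 13902 detected genes was -0.01, and 6683 of these were higher and 7218 lower. The interquartile range of the members was -0.17 to 0.19, beside -0.22 to 0.19 for all detected genes. At least 1.5-fold higher values were found for 3 members (6.38% of the detected members), where 6.19% of all detected genes passed that size. At least 1.5-fold lower values were found for 1 member (2.13%), where 4.68% of all detected genes passed. Both member shares rest on 3 genes and 1 gene, and the upward one is near the background. At a lower mark of 0.32 on the log2 scale, 6 members (12.8%) were higher and 4 (8.51%) lower, beside 14.8% and 16% of all detected genes. No member differed by 2-fold, a size that 1.88% of all detected genes reached upward and 0.662% downward. Past the range of the receptor probe sets lay 4 members upward (Eif5a2, Eif5, Eif2b2 and Eif4ebp1) and 3 downward (Eif1b, Eif2b1 and Eif5b), or 8.51% and 6.38% of the detected members, beside 11.2% and 10.5% of all detected genes.

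**Figure D1:**
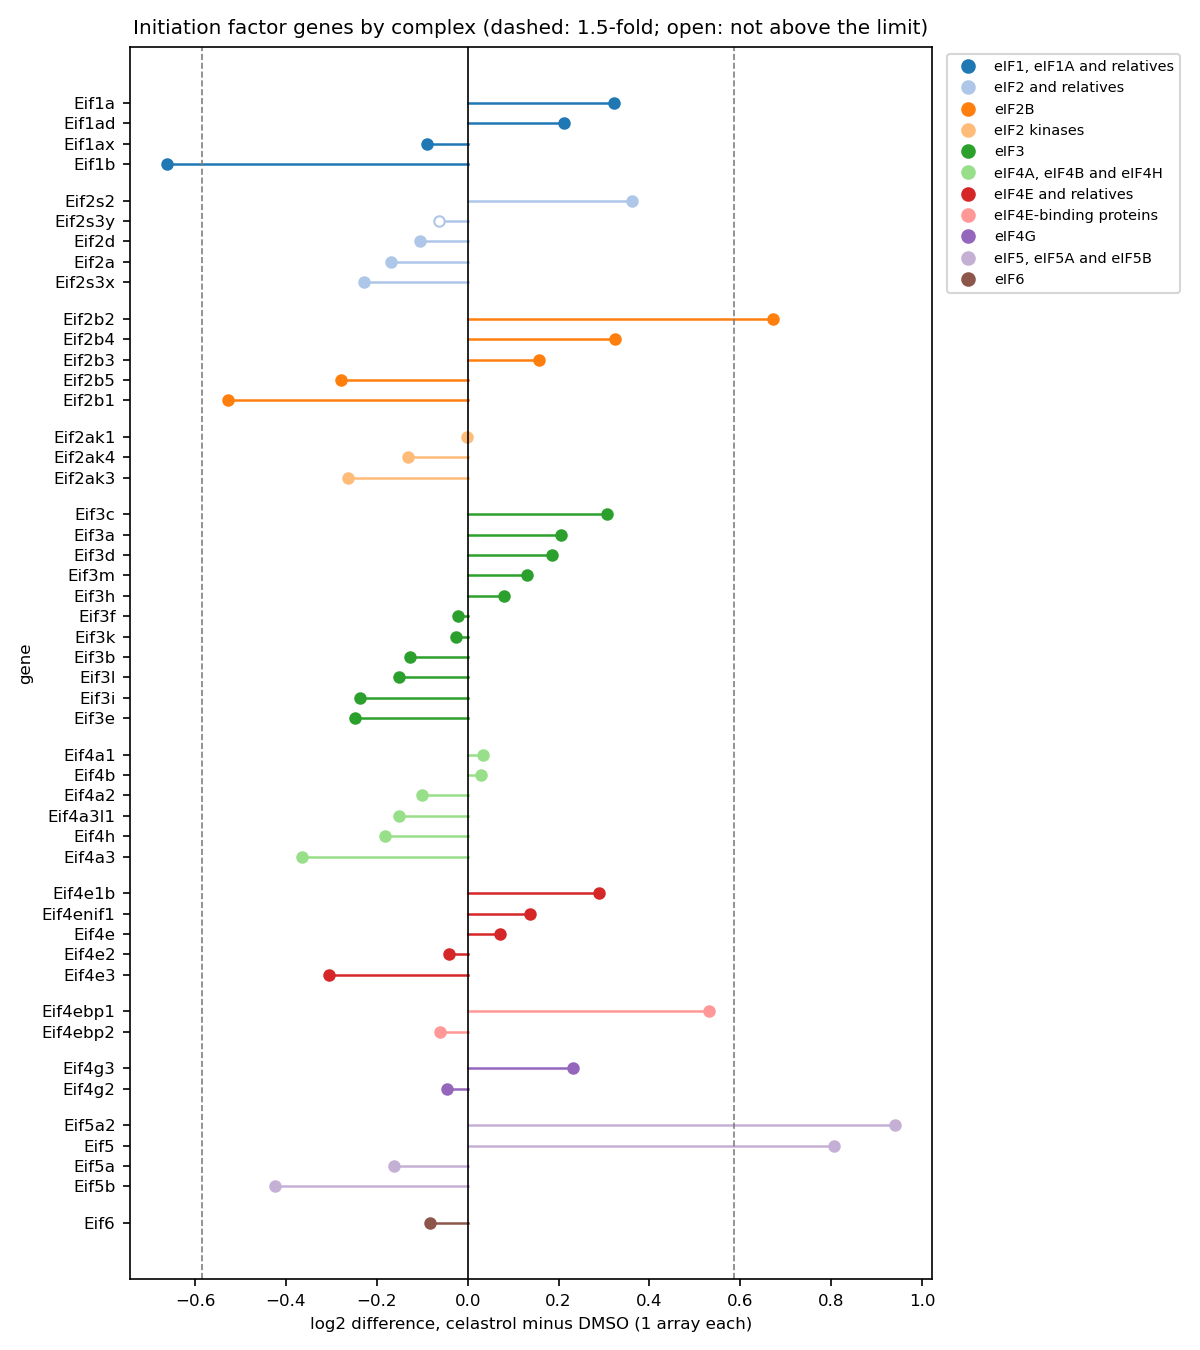
Log2 difference, celastrol minus DMSO, of the 48 initiation factor genes, grouped and coloured by complex, from 1 array per condition and so without error bars. The dashed lines mark 1.5-fold, which Eif5a2, Eif5 and Eif2b2 exceed upward and Eif1b downward. The open point is Eif2s3y, the 1 member below the detection limit in both arrays.

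The highest difference in the family was that of Eif5a2, the less widely expressed paralog of eIF5A, a hypusine-carrying factor that helps the ribosome through difficult peptide bonds. Its value was 7.88 with DMSO and 8.82 with celastrol, a difference of 0.94 or 1.92-fold, the 313th highest of the detected genes. Eif5a, the abundant form, stood at 12.97 and 12.81, and its other probe set gave -0.13 beside -0.16. Thus the paralogs lay on opposite sides of 0, although both Eif5a differences were small and inside the receptor range. Eif5, which triggers GTP hydrolysis by eIF2 when the start codon is recognised, had values of 10.98 and 11.79, a 1.75-fold difference that ranked 459th from the top. A dimmer probe set that names Eif5 together with the small nucleolar RNA gene Snora28 gave 7.46 and 7.69, a smaller difference of 0.22 in the same direction. Eif5b, the GTPase that joins the large ribosomal subunit, went the other way, from 9.23 to 8.81 (-0.42, 1.34-fold lower). The genes numbered eIF5 therefore held the highest differences of the family together with 1 of its lowest.

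At the other end, Eif1b had the lowest difference of all members. It encodes a close paralog of eIF1, the factor that keeps the scanning ribosome open until a start codon is reached. Its value was 10.26 with DMSO and 9.60 with celastrol, 1.58-fold lower. The similarity of its sequence to that of Eif1, which was not analysed here, leaves its value uncertain. The eIF1A genes, whose product works beside eIF1 in scanning, were at 9.23 and 9.55 for Eif1a (0.32) and at 10.89 and 10.80 for Eif1ax (-0.09). For Eif1a, 4 further probe sets shared with 7 other genes gave smaller differences of 0.09 to 0.13, so its size is uncertain. Eif1ad, an eIF1A domain protein of the small-subunit assembly pathway, was at 10.14 and 10.35 (0.21).

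The bases just before the start sites of the 4 genes past 1.5-fold are printed to let their promoters be compared. Capitals mark matches, on either strand, to the motifs searched. Each is the RefSeq sequence of the 150 bases before the annotated start, 5′ to 3′ on the strand of the gene, in build GRCm38.p6. They lie at chr3:28781127-28781276 (Eif5a2), chr12:111537951-111538100 (Eif5), chr12:85219331-85219480 (Eif2b2) and chr9:120492456-120492605 (Eif1b), all on the plus strand.
Eif5a2: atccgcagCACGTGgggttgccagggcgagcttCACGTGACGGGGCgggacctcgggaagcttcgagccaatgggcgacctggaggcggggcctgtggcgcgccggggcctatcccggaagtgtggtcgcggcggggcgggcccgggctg
Eif5: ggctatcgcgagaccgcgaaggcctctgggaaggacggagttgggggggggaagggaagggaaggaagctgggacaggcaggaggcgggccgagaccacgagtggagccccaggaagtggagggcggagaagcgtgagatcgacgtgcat
Eif2b2: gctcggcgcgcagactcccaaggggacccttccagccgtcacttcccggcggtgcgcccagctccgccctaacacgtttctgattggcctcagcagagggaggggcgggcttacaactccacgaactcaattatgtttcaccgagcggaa
Eif1b: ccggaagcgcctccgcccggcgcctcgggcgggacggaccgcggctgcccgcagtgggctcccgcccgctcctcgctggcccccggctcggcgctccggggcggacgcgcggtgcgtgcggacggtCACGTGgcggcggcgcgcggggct

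The 4 motifs were the E-box CACGTG, the antioxidant response element core TGACNNNGC, the C/EBP-ATF response element core TGATGNAA and the heat shock element of 3 units, each searched on both strands of the 250 bases before a start. The Eif5a2 window held 2 E-boxes, whose first bases lay 142 and 117 bases before the start, and 1 antioxidant core at 113 bases that overlaps the second E-box by 2 letters. The Eif1b window held 1 E-box, 24 bases before the start, while no motif was matched before Eif5 or Eif2b2. Thus the E-box stood before both the highest and the lowest member. A promoter was present in the sequence table for 38 members, several of them with more than 1 start, and 8 of the 38 (21.1%) held an E-box, beside 9.50% of the 11016 detected genes with a promoter and 6.86% of all 27025. These 8 were Eif1b, Eif3f, Eif3k, Eif4a1, Eif4e, Eif4h, Eif5a and Eif5a2, whose differences ran from -0.66 to 0.94. The antioxidant core was found for 5 of 38 members (13.2%), beside 13.6% of detected genes and 11.5% of all. The C/EBP-ATF core was found for 1 (2.63%), Eif2s3x, beside 2.39% and 3.91%, and the heat shock element for none, beside 0.445% and 0.514%. A gene counted if any of its windows matched, so genes with more starts had more chances, and numbers of starts were not compared. The median share of G and C letters was 61.5% for the members, 59.6% for the detected genes and 52.4% for all. A match of letters is not a binding site, and these shares were not tested. Eif1a, Eif2b3, Eif3e, Eif3h, Eif3i, Eif4e1b, Eif4e3, Eif4ebp1, Eif4g2 and Eif6 had no entry.

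Of the 5 subunits of eIF2B, 3 were higher and 2 lower with celastrol. Only Eif2b2 upward and Eif2b1 downward lay outside the receptor range of -0.42 to 0.41, which comes from dimmer probe sets. Eif2b2, the beta subunit of the regulatory part that senses phosphorylated eIF2, had values of 8.79 and 9.47, which is 1.59-fold higher with celastrol. Eif2b1, the alpha subunit of the same regulatory part, was at 9.78 and 9.26, 1.44-fold lower. The third regulatory subunit, delta, encoded by Eif2b4, was at 8.37 and 8.69 (0.32). Of the catalytic subunits, Eif2b3 (gamma) was at 10.18 and 10.34 (0.16) and Eif2b5 (epsilon), which carries the exchange activity, at 9.69 and 9.41 (-0.28). Both parts of the complex thus had members on each side of 0, and the median of the 5 was 0.16.

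Of eIF2 itself, the beta subunit gene Eif2s2 was at 11.15 and 11.51 (0.36, 1.28-fold higher), and its second probe set was at 10.05 and 10.27 (0.22). The gamma subunit gene Eif2s3x was at 12.31 and 12.08 (-0.23). Its Y-linked counterpart Eif2s3y was below the detection limit in both arrays, at 3.61 and 3.55, so its difference has no meaning. Eif2s1, the gene of the phosphorylated alpha subunit, was not analysed here. Eif2a (10.26 and 10.09) and Eif2d (8.87 and 8.77), which encode factors that can deliver initiator or other transfer RNA without eIF2, differed by -0.17 and -0.11.

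The 3 eIF2 kinase genes analysed here, without Eif2ak2, were at the same level or slightly lower with celastrol. Eif2ak1, the haem-regulated kinase HRI, had nearly the same value in both arrays (9.63 and 9.62, a difference of -0.0021 that turned positive, up to 0.06, under each of the 3 scaling alternatives). Eif2ak4, the amino acid sensor GCN2, was at 8.56 and 8.43 (-0.13). Eif2ak3, the endoplasmic reticulum sensor PERK, was at 8.33 and 8.06 (-0.26). These kinases are switched on at the protein level, which an array of transcripts does not measure.

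**Figure D2:**
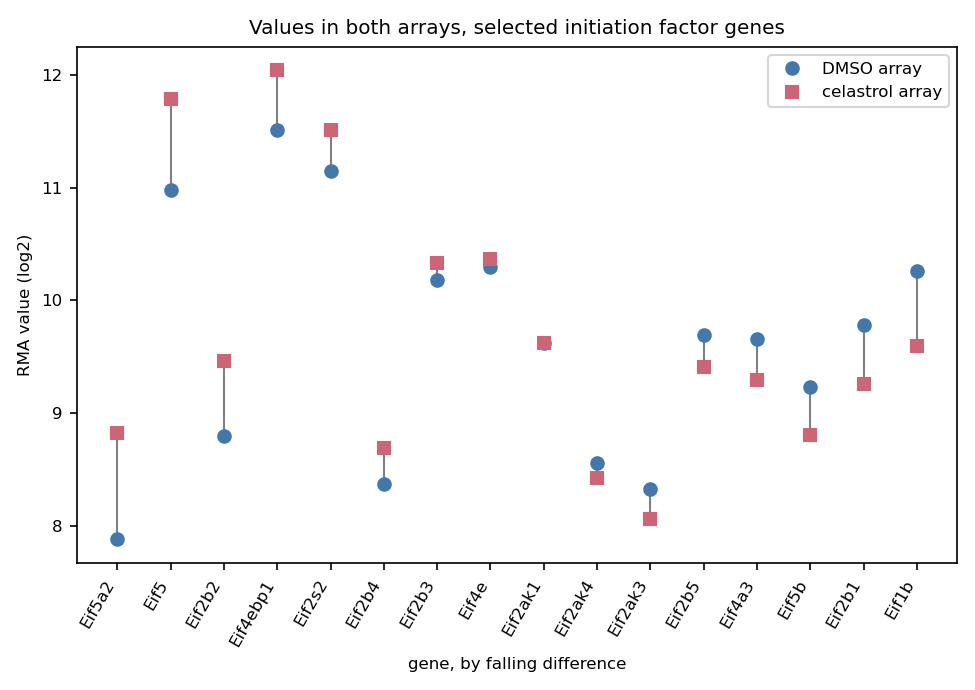
RMA values (log2) in the DMSO array (circles) and the celastrol array (squares) for 16 initiation factor genes, ordered by falling difference, with 1 array per condition. Eif5a2, Eif5, Eif2b2 and Eif4ebp1 at the left are higher with celastrol and Eif1b, Eif2b1 and Eif5b at the right are lower, while the points of Eif2ak1 coincide. Heights of different genes are not comparable, since probe sets differ in brightness.

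The genes of eIF3, the multi-subunit scaffold that holds the small subunit and the messenger RNA complex together, differed little. All 11 measured subunits lay between -0.25 and 0.31, with 5 higher, 6 lower and a median of -0.02, which turned to 0.03 with the trend subtracted. The 8 subunits of the structural core were divided evenly. Eif3c (11.79 and 12.10), Eif3a (11.22 and 11.43), Eif3m (9.94 and 10.07) and Eif3h (12.70 and 12.78) were the 4 higher ones, with differences of 0.31, 0.20, 0.13 and 0.08. Eif3e (11.45 and 11.20), Eif3l (11.69 and 11.54), Eif3k (11.02 and 11.00) and Eif3f (11.79 and 11.77) were the 4 lower ones, with differences of -0.25, -0.15, -0.03 and -0.02, of which Eif3k and Eif3f turned positive with the trend subtracted. Among the other subunits, Eif3d, which can bind the cap itself, was at 11.76 and 11.95 (0.19). Eif3i and Eif3b, which form the part that docks near the messenger RNA entry side, were at 11.31 and 11.07 (-0.24) and at 12.62 and 12.49 (-0.13). For the peripheral subunit eIF3j, 2 probe sets shared between Eif3j1 and Eif3j2 gave 0.09 and 0.07 and are not counted among the 11. Eif3g was not analysed here.

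At the cap, the helicase and its partners were likewise near 0. Eif4a1, the helicase of the cap complex, was at 13.43 and 13.46 (0.03), and its other probe sets gave -0.03 and -0.05. Its paralog Eif4a2 was at 11.01 and 10.91 (-0.10). The helicase cofactors Eif4b (12.23 and 12.26, 0.03) and Eif4h (12.16 and 11.98, -0.18) lay on either side of 0. Eif4a3, a relative that acts in the exon junction complex and not in initiation, was the lowest of these, at 9.66 and 9.30 (-0.36, 1.29-fold lower). A pair of further probe sets that also name its copy Eif4a3l1 gave nearly the same differences, -0.36 and -0.37, so 3 probe sets lay within 0.02 of each other. The probe set of Eif4a3l1 alone was at 6.73 and 6.58 (-0.15).

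The cap-binding protein genes gave a less clear picture. Eif4e, the cap-binding subunit, was at 10.30 and 10.37 (0.07) by its brightest probe set. Its other probe sets disagreed with this and with each other, 1 at 8.06 and 7.61 (-0.44) and 1 at 6.63 and 7.30 (0.67), so no direction can be given for Eif4e. Eif4e2, the cap-binding repressor 4EHP, was at 11.12 and 11.07 (-0.04, positive with the trend subtracted). Eif4enif1, the shuttling protein 4E-T that carries eIF4E into processing bodies, was at 9.13 and 9.26 (0.14). The germ-line form Eif4e1b (6.13 and 6.42) and Eif4e3 (5.98 and 5.68) were close to the detection limit, and their differences of 0.29 and -0.31 have little weight. The second Eif4e1b probe set gave -0.03.

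Of the eIF4E-binding proteins, Eif4ebp1, the best known mTORC1-controlled repressor and a target of the stress transcription factor ATF4, was higher with celastrol, at 11.51 and 12.04 (0.53). This is 1.44-fold, short of the 1.5-fold mark, and 1020th highest of the detected genes. Its paralog Eif4ebp2 stood at 10.38 and 10.32 (-0.06). A probe set that names Eif4ebp3 together with Ankhd1 gave 7.48 and 7.55 (0.06) and cannot be assigned to either gene. The measured repressor genes thus differed in size, with Eif4ebp2 too near 0 to give a direction, and this contrast was not tested. Among the scaffold genes, Eif4g3 was at 8.48 and 8.72 (0.23), and Eif4g2, the DAP5 protein of cap-independent initiation, at 12.10 and 12.05 (-0.05), while Eif4g1 was not analysed here. Eif6, which keeps ribosomal subunits from joining too early, was at 12.26 and 12.17 (-0.08).

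The choice of probe set bears on 7 members, the other 41 having 1 probe set each. Probe set identifiers of this array run largely in the order of the genome, so the genes named by neighbouring identifiers show where a probe set lies. For 5 of the 7 (Eif2s2, Eif3m, Eif4a1, Eif4e and Eif5a), none of the genes named by the 10 identifiers on each side of the brightest probe set was on the chromosome of the member. Of all 997 genes with several probe sets, 280 (28.1%) had a brightest probe set with fewer than 5 such neighbours. With the brightest probe set next to genes of the same chromosome instead, Eif2s2 was at 0.22, Eif3m at 0.16, Eif4a1 at -0.05, Eif5a at -0.13 and Eif4e at -0.44. The value of Eif4e therefore depends on the probe set, and the direction of Eif4a1, near 0, changes with it. The 4 members past 1.5-fold have 1 probe set each, next to genes of their own chromosome.

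**Figure D3:**
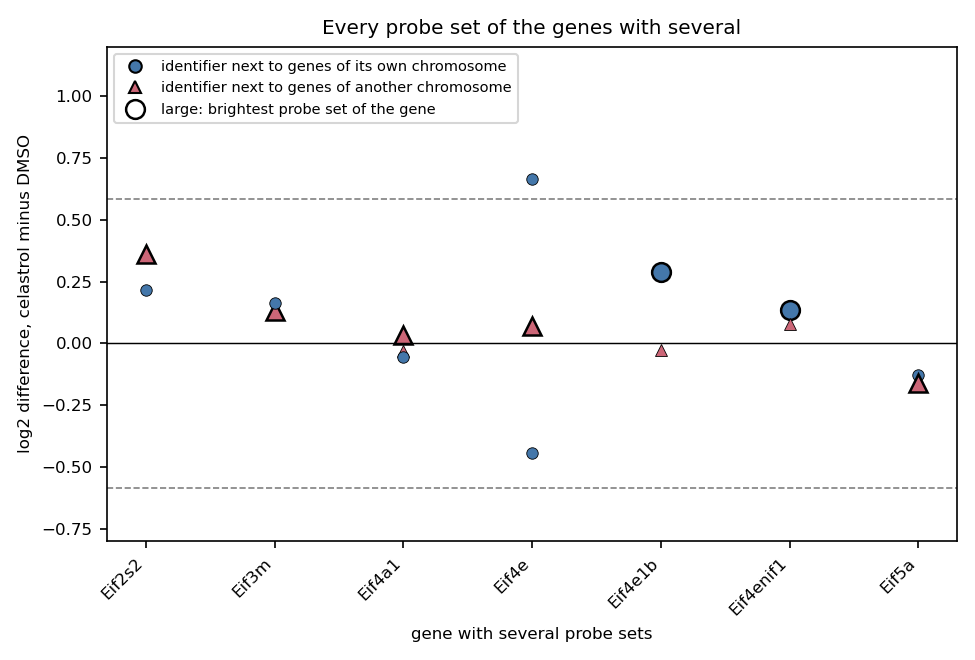
Log2 difference, celastrol minus DMSO, of every single-gene probe set of the 7 members with several. Large symbols are the brightest probe set of a gene, and triangles mark probe sets whose neighbouring identifiers name genes of another chromosome. The probe sets of Eif4e spread from -0.44 to 0.67, whereas those of Eif3m, Eif4enif1 and Eif5a nearly coincide.

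Genes that act on the initiation factors were examined as 5 further lists. The lists were chosen with earlier results of these data known, so their shares past a mark are descriptive and were not tested. Of 10 partners of the eIF2 kinases and phosphatase, 2 were higher and 8 lower, with a median of -0.13, and 1 (10% of the list) was past 1.5-fold upward, beside 6.19% of all detected genes. It was Ppp1r15a, or GADD34, the stress-induced subunit that directs protein phosphatase 1 to eIF2, whose value went from 7.36 to 9.43, a 4.19-fold difference. Its constitutive counterpart Ppp1r15b was at 9.52 and 9.57 (0.05). The lowest was Ppp1ca, a catalytic subunit of the phosphatase, at 12.63 and 12.31 (-0.32). On the eIF2 arm the inducible phosphatase subunit thus had a larger difference than any eIF2, eIF2B or kinase gene analysed here.

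The list of the mTORC1 arm, which controls the eIF4E-binding proteins, held 4 genes past that mark. Its 13 detected genes had a median of 0.01. Of these, 3 (23.1%) passed 1.5-fold upward and 1 (7.69%) downward, beside 6.19% and 4.68% of all detected genes. Since this list too was chosen with earlier results known, its shares cannot be read as a trait of the arm. Ddit4, a stress-induced inhibitor of mTORC1, was at 9.01 and 10.53 (2.88-fold higher). Sesn2, which restrains mTORC1 when leucine is short, was at 8.10 and 9.24 (2.20-fold higher). Akt1s1, the inhibitory subunit PRAS40, was at 9.45 and 10.04 and passed the mark narrowly (1.51-fold higher). Mtor, the kinase itself, was at 8.93 and 8.13 (1.74-fold lower). Below the mark, Rheb, the small GTPase that activates mTORC1, was at 11.04 and 11.60 (0.56), Deptor, another inhibitor, at 8.67 and 8.15 (-0.52), and Tbc1d7, a subunit of the inhibitory TSC complex, at 8.36 and 7.87 (-0.49). Inhibitors of the kinase were thus found on both sides of 0, and its activator Rheb above 0.

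The other 3 lists held no gene past 1.5-fold. Cap and poly(A) partners of the cap complex had a median of 0.04 over 14 genes, from Pdcd4, an inhibitor of eIF4A, at 10.87 and 10.63 (-0.24) to Mknk2, a kinase of eIF4E, at 9.93 and 10.32 (0.39). Elongation and termination factors had a median of 0.02 over 11 detected genes, from Eef2k, which inactivates the elongation factor eEF2, at 7.80 and 7.44 (-0.36) to Etf1, the release factor eRF1, at 10.32 and 10.80 (0.47). Mitochondrial translation factors had a median of -0.0055 over 9 genes, from Mtif3 (9.32 and 9.09, -0.23) to Mtif2 (7.75 and 8.11, 0.36), both mitochondrial initiation factors. The general factors of cytosolic and mitochondrial translation thus had medians near 0, as did the initiation factors.

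**Figure D4:**
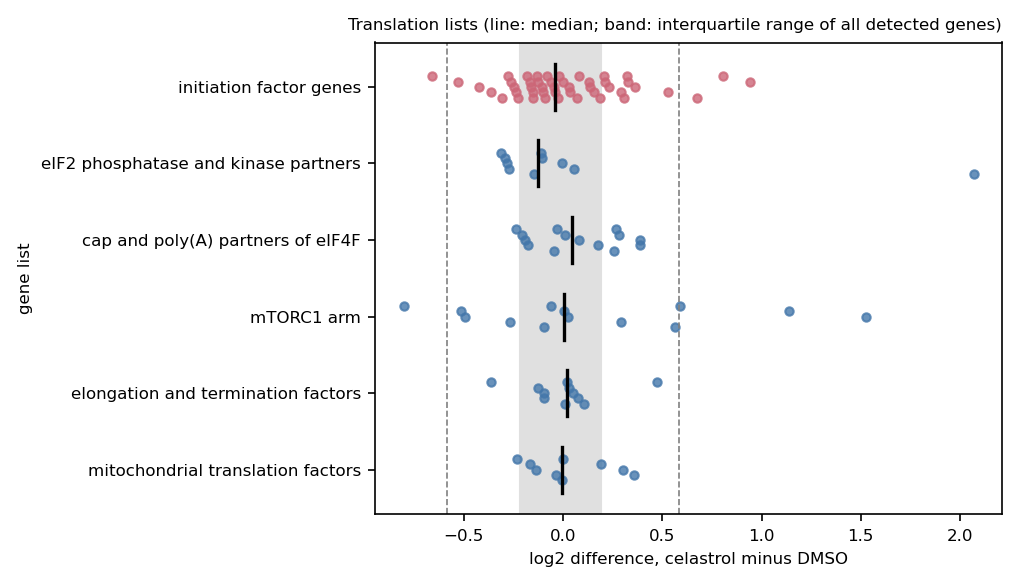
Log2 difference, celastrol minus DMSO, of each detected gene of the initiation factor family and of the 5 related lists, 1 array per condition. Black lines are list medians, all between -0.13 and 0.04, the grey band is the interquartile range of all detected genes (-0.22 to 0.19) and dashed lines mark 1.5-fold. The points farthest right are Ppp1r15a, Ddit4 and Sesn2.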

How the data were processed

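The deposited table held 1 value per probe set and array on a log2 scale, made by the authors with RMA per the submitters' processing notes; RMA's settings are not given here, and base 2 was inferred from the range (2.73 to 14.5). GEO's platform annotation named 1 gene for 21797 of 35556 probe sets, several for 1613 and none for 12146, and probe sets naming several or none entered no list. A gene took its probe set with the highest mean of both arrays, and 13902 of 19946 genes were detected. Symbols were updated by Entrez identifier to a GRCm38.p6 gene table, matching 21706 probe sets. RMA compresses differences of dim probe sets. With 1 array per group no test was run, and the number of arrays limits the precision.

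Every initiation factor gene was named, and of each other list the genes past 1.5-fold or else the extremes, with Ppp1r15b, Rheb, Deptor, Tbc1d7 and shared probe sets added after their values were seen. The members and lists were chosen with earlier results of these data known. The code for gene values and counts was checked on simulated data. The planted differences were larger than that of any member, and the scatter was smaller than that of the receptor probe sets. That check therefore does not show how well small differences are recovered. Alternatives were other detection limits, averaging over probe sets, quantile normalization, and removal of the median difference or of a lowess trend (fraction 0.3). Further alternatives were fold thresholds of 1.25 and 2 and, added after seeing the data, probe sets placed by their neighbours. The software was Python 3.11.15 with statsmodels 0.14.6, pandas 2.3.3 and numpy 2.4.6.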

Additional observations from a re-analysis of the deposited data

How the results depend on the processing

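All 119 recalculated medians moved by less than 0.21, the standard deviation of the receptor probe sets' differences, and that of the initiation factors ran from -0.05 to 0.0088. Most medians were themselves smaller than 0.21, so this mark does not show that their signs held. Other detection limits and probe set choices left most list medians unchanged, so the count of 119 is no measure of stability. The median of eIF4E and relatives went from 0.07 to -0.04 with probe sets placed by their neighbours. With the lowess trend subtracted, that of eIF3 went from -0.02 to 0.03 and that of the mitochondrial factors from -0.0055 to 0.02. Of 108 recalculated counts past the threshold, 12 differed under another threshold, 10 of them by over 1.5 times. Under the other settings 1 differed, the higher genes of the mTORC1 arm, 4 in place of 3 with the lowess trend subtracted. At 2-fold, 0 initiation factors were higher, 0 were lower, and 0 genes of the mTORC1 arm were lower. At a log2 threshold of 0.32, 6 initiation factors were higher (12.8% of the detected members, beside 14.8% of all detected genes) and 4 lower (8.51%, beside 16%), 3 genes of the mTORC1 arm were lower, 2 of the cap and poly(A) partners higher, 1 elongation or termination factor higher and 1 lower, and 1 mitochondrial factor higher. Of 336 recalculated single-gene differences, 1 moved by more than 0.21, that of Eif4e, to -0.44 with probe sets placed by their neighbours. Many of the 336 could not move, so this count is no measure of stability. Another detection limit leaves a gene's difference unchanged, and the choice of probe set reaches only the 7 members with several. Eif5a2 ran from 0.94 to 1.00, Eif5 from 0.81 to 0.85, Eif2b2 from 0.67 to 0.73, Eif4ebp1 from 0.53 to 0.58 and Eif1b from -0.66 to -0.60. Under the 3 scalings 44 of the 48 members kept their sign, the exceptions being Eif2ak1, Eif3f, Eif3k and Eif4e2. No paired analysis was possible because each group holds 1 array.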
